A study of Mus musculus with 32 samples.

Results

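The genes described here encode the subunits of the oxidative phosphorylation machinery of the mitochondrion, sorted by the complex they belong to. They were taken by symbol from the annotation of the arrays: names starting with Nduf (complex I), the names Sdha to Sdhd (complex II), and names starting with Uqcr (complex III), with Cox4 to Cox8 (complex IV) or with Atp5 (complex V). A probe was kept when its signal was detected above background, at a detection p-value under 0.05, on at least 4 of the 16 arrays of a sex. In females 94 of 107 such probes were kept, for 77 of 85 genes, among 12561 detected probes of 25697 in all. In males 80 of 94 probes were kept, for 70 of 79 genes, among 12173 detected probes of 24613 in all.

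Oxidative phosphorylation is how mitochondria make most of the ATP of a cell. Complex I (NADH dehydrogenase) and complex II (succinate dehydrogenase) take electrons from NADH and succinate, complex III (cytochrome bc1) passes them to cytochrome c, and complex IV (cytochrome c oxidase) gives them to oxygen. Complexes I, III and IV pump protons across the inner membrane, and complex V (ATP synthase) makes ATP as the protons flow back. Hepatocytes hold many mitochondria and burn fatty acids there, so the liver uses these complexes heavily when fat is its fuel. Some subunits are encoded by the mitochondrial genome, and no probe of either array version was named for any of those 13 genes.

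Gene expression was measured by biotin labelling of total RNA and hybridisation to bead arrays in whole liver of C57bl/6J OlaHsd mice, all 20 weeks old. Mothers received in pregnancy a diet low in protein (9% by its label, from casein at 90 g per kg) or the 18% control diet. At 6 weeks of age their offspring went on a high-fat diet, its fat content given as 36%, or on a control diet, for 14 weeks. In each sex the groups were high-fat offspring of 9% mothers, control-diet offspring of 9% mothers, high-fat offspring of 18% mothers and control-diet offspring of 18% mothers, with 4 arrays in each, 32 in all. The labels call them biological replicates and name no litter, so p-values measure the spread between these animals. The maternal diet was given to mothers, and the number of litters behind each group is unknown. If some animals were littermates, p-values for maternal diet and its interaction would not measure the spread between litters. The title of the study poses its question as whether protein restriction of the mother programmes glucose and fatty acid metabolism in a sex-dependent way. Each sex had its own version of the array, so levels are compared within a sex alone.

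Brightness differed between the female groups. Mean raw intensity of an array was 300 to 410 units in high-fat females of 9% mothers, against 366 to 461 units in control-diet females of 9% mothers. It was 323 to 418 units in high-fat females of 18% mothers, against 399 to 452 units in control-diet females of 18% mothers. The 4 dimmest female arrays were replicates 1, 2 and 3 of the high-fat females of 9% mothers and replicate 1 of the high-fat females of 18% mothers. Liver identity was clear from the markers: 9 of 10 hepatocyte genes in females and 8 of 10 in males had a probe, and all of these were detected. In whole tissue, fewer cells of a type and less RNA per cell cannot be told apart.

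The members are mostly abundant transcripts. On the normalised log2 scale, the median member probe lay between 11.6 and 12.0 on every female array, where the median detected probe stood at 7.28. On the male arrays the median member probe lay between 10.7 and 11.1, where the median detected probe stood at 6.49. Complex I held 50 member probes in females and 41 in males, complex II 5 and 4, complex III 8 and 5, complex IV 14 and 15, and complex V 17 and 15. The symbols also caught 6 probes per sex for Ndufaf genes, which encode assembly factors of complex I and not subunits. Among the others were Ndufs5-ps, annotated as a pseudogene, Ndufa4, named for complex I but since placed in complex IV, and Cox7a2l, a factor of respiratory supercomplexes.

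A few genes of the family were not measured in liver by these arrays. Sdha, the flavoprotein of complex II, had no probe in females, and its male probe was detected on 0 of 16 arrays. Probes for Ndufs1, a core subunit of complex I, and Uqcrq, a small subunit of complex III, were detected on 0 arrays of either sex. The isoforms Cox6a2 and Cox8c were likewise detected on 0 arrays of either sex, and Cox4i2 and Cox6b2 on 0 female arrays. Just outside the limit stood Cox8b, an isoform of muscle and brown fat, detected on 3 female arrays. Just inside it stood the male probes of Cox4i2 (4 arrays), Cox6b2 (7 arrays) and Atp5j (9 arrays), and the female probes of Uqcrfs1 (11 arrays) and Atp5k (13 arrays). Also on 0 arrays were female probes of Ndufaf7, Atp5j, Cox7b2 and Sdhc, and male probes of Ndufaf6, Ndufaf7, Cox6b2, Cox8b, Ndufc1, Uqcrfs1 and Atp5md, while male probes of Cox7b2 and Sdhc were detected on 1. Every other member probe was detected on all 16 arrays of its sex.

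In females of 9% mothers, members of each complex were mostly higher on the high-fat diet. Probes of complexes I, III, IV and V passed the test. Of 94 member probes, 25 passed the test, and all 25 were higher in high-fat livers (limma, Benjamini-Hochberg adjusted p under 0.05 over all detected probes). These stand for 23 genes. Over all 12561 detected probes 2.31% were called higher, 2.13% lower and 4.43% in either direction. The change was positive for 89 of the 94 probes, against 48.1% of all probes, and the median log2 change of the members was 0.27, against -0.01 over all probes. At an unadjusted p under 0.05, 67 member probes were higher and 1 was lower, against 10.6% and 11.1% of all probes. For 50 member probes every high-fat array lay above every control-diet array, and for 0 every high-fat array lay below, where 5.33% and 5.71% of all probes did so.

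**Figure D1:**
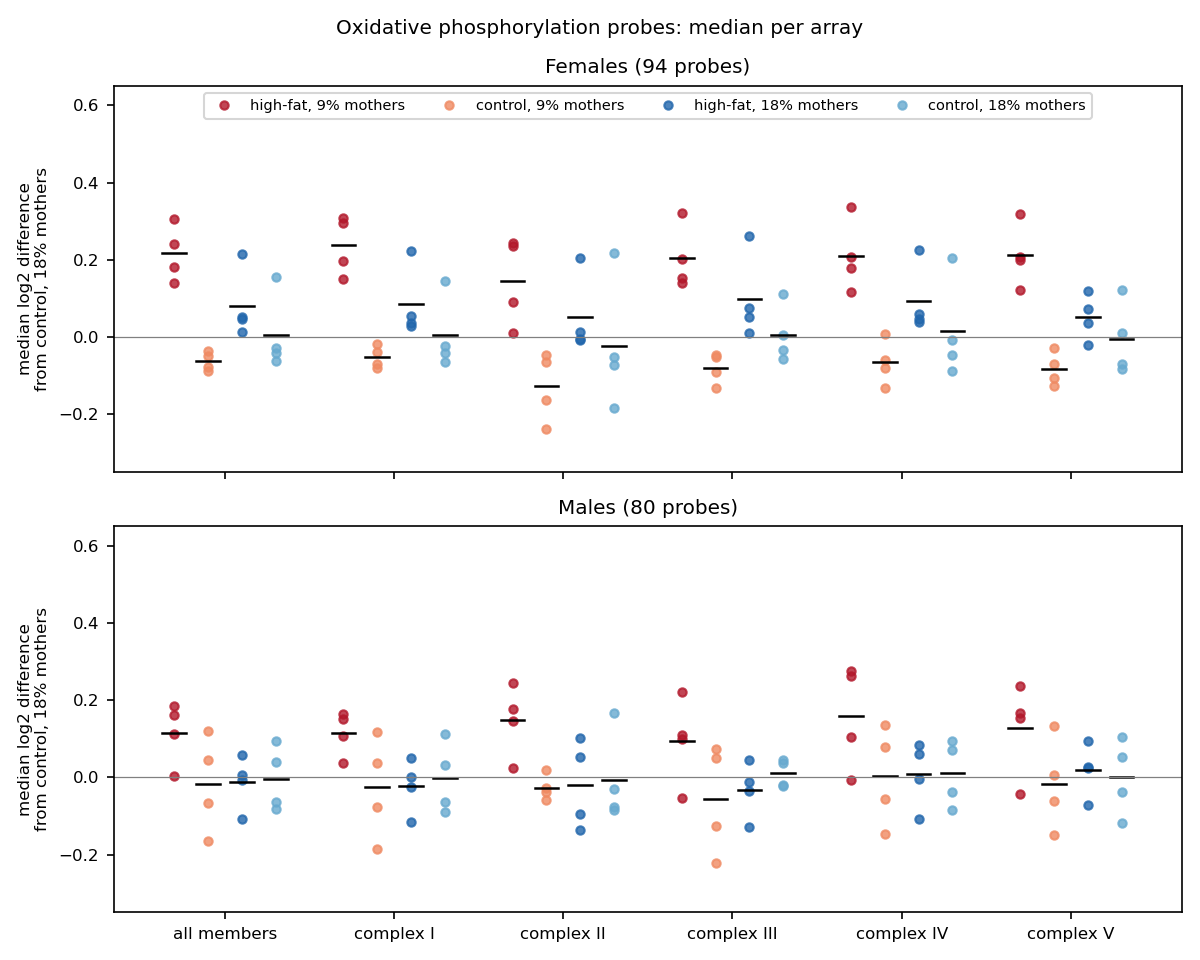
Median over the member probes of each array, as log2 difference from the mean of control-diet offspring of 18% mothers, for all members and for each complex; points are arrays, 4 per group, and bars are group means. In females of 9% mothers the 4 high-fat arrays sit between 0.14 and 0.31 and the 4 control-diet arrays between -0.09 and -0.04.

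The median member stood 0.31, 0.18, 0.24 and 0.14 above the mean of control-diet females of 18% mothers on the 4 arrays of high-fat females of 9% mothers. On the arrays of control-diet females of 9% mothers it stood at -0.04, -0.08, -0.09 and -0.05. These groups did not overlap, and high-fat replicate 4, the brightest of its group, was the lowest of its group. By complex the median change was 0.26 for complex I, 0.19 for complex II, 0.22 for complex III, 0.28 for complex IV and 0.28 for complex V.

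The count of calls differed between refits that took in brightness or left arrays out. With array brightness (log2 of the mean raw intensity) added as a covariate, 0 member probes passed, 86 of 94 changes remained positive and the median was 0.19. The median SE of the members was 0.116 in that fit, against 0.099 without the covariate. Brightness differed between the diet groups, so this fit cannot tell brightness from diet. Without the 4 dimmest arrays, which left 1 array of high-fat females of 9% mothers, 87 changes were positive and the median was 0.21. Without high-fat replicate 1, 2 or 3 the calls numbered 8, 7 and 3, and without replicate 4 they numbered 29. Without control-diet replicate 1, 2, 3 or 4 of the 9% mothers they numbered 13, 9, 11 and 5. The median stayed between 0.26 and 0.30 whichever array was left out. With median scaling in place of quantile normalisation, the median of all probes moved to -0.12, that of the members to 0.35, and 16 members passed. The share of all probes called in these refits is not given here. A drop in calls therefore cannot be read as particular to the members.

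The upstream sequences of 3 genes with large changes are shown because the members moved together, and because NRF1, a nuclear respiratory factor, is known to bind many promoters of respiratory chain genes. The sequences are from RefSeq, build GRCm38.p6, and run 5′ to 3′ on the gene's strand over the 250 bases before its start; capitals mark matches to the 10-base NRF1 motif on either strand. Ndufb4 (minus strand, chr16:37654369-37654618) had 3 matches, Atp5k (minus strand, chr5:108434400-108434649) had 1, and Cox7b (plus strand, chrX:106015450-106015699) had 0.
Ndufb4: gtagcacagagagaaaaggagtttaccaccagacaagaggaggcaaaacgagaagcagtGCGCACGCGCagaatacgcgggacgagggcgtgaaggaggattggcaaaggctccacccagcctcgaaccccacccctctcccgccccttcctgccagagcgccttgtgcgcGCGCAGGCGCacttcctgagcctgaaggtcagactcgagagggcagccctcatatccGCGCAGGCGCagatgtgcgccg
Atp5k: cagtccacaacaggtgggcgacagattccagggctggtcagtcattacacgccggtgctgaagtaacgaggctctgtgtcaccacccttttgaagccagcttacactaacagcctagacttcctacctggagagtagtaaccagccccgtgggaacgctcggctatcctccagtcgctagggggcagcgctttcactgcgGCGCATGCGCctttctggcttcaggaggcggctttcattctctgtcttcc
Cox7b: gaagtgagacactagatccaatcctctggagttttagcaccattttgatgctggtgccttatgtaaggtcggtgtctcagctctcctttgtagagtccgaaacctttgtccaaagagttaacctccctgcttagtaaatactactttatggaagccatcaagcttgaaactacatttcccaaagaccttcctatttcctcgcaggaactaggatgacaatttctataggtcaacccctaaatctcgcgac

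Windows of 300 bases around the start were found for 70 of the 81 member genes of either sex, 75 windows in all. The NRF1 motif, searched on both strands, was in 18 of them (24.0%), against 6.38% of 21263 windows of coding genes. Other motifs searched on both strands were CCGGAAGT for ETS factors such as GABPA (6.67% of member windows, 5.145% of all), AAGATGGCG for YY1 (9.33% and 1.83%) and TCAAGGTCA for estrogen-related receptors (2.67% and 0.334%). Of the windows of genes called in females of 9% mothers, 4 of 22 held the NRF1 motif, as did 14 of 53 windows of the other members. A match is a description of letters and not of binding.

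Complex I contributed 13 of the 25 called probes, for 13 genes. Ndufb4, an accessory subunit of the membrane arm, measured 9.88, 10.03, 10.32 and 10.43 (normalised log2 intensity) in high-fat females of 9% mothers, against 9.49, 9.08, 9.93 and 9.32 in control-diet females of 9% mothers. The groups overlapped, since control-diet replicate 3 stood just above high-fat replicate 1. Ndufb4 rose 1.64-fold, a log2 change of 0.71 ± 0.20 (SE, 4 arrays per group, limma adjusted p = 0.0498). Ndufb6, another accessory subunit of the membrane arm, rose by 0.65 ± 0.14, and Ndufb5, of the same arm, by 0.61 ± 0.12. Ndufc1 rose by 0.58 ± 0.10 and Ndufb2 by 0.54 ± 0.12, both also accessory subunits (limma adjusted p from 0.00881 to 0.0216 for these 4 genes). All of the high-fat arrays lay above all of the control-diet arrays for these 4.

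A further 8 probes of complex I passed, and their genes are named after their values were seen. Ndufa5 (0.51), Ndufs5-ps (0.48), Ndufa10 (0.46), Ndufv3 (0.43), Ndufa7 (0.41), Ndufs8 (0.37), Ndufa13 (0.36) and Ndufa1 (0.27) rose on the log2 scale. Ndufs8 is a core subunit that carries iron-sulphur clusters, and it was the one called among 5 core subunits (median change 0.25). Of 12 probes for the B subunits 4 were called (median 0.37). Of 25 probes for other accessory subunits 7 were called (median 0.26). Ndufs5, the gene that Ndufs5-ps is named after, had no probe of its own among the female members, and whether the pseudogene probe also binds its transcript was not tested.

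Of the 6 Ndufaf probes 0 passed (median 0.16). Ndufaf5 had changes of 0.56 and 0.32 at its probes, Ndufaf3 0.19, Ndufaf1 0.12, Ndufaf7 -0.05 and Ndufaf4 -0.07. Among the other probes filed under complex I the one negative change was at a probe of Ndufb11 (-0.09), whose other probe gave 0.24.

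Complex II had 0 called probes of 5, and the change was positive at all 5 (median 0.19). Sdhb, the iron-sulphur subunit that passes electrons from the flavoprotein to ubiquinone, measured 11.99, 11.81, 11.93 and 11.78 at its brightest probe in high-fat females of 9% mothers, against 11.67, 11.46, 11.43 and 11.52 in control-diet females of 9% mothers. These groups did not overlap, yet the change of 0.36 ± 0.10 (SE, 4 arrays per group) missed the threshold (limma adjusted p = 0.0594). The other Sdhb probes changed by 0.54 ± 0.18 and 0.17 ± 0.10. Sdhd, a membrane anchor, changed by 0.19 ± 0.13, and Sdhc, the other anchor, by 0.05 ± 0.11 (limma adjusted p = 0.43 and 0.835).

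In complex III, 3 of 8 probes were called, for 2 small subunits. Uqcr10 measured 13.59, 13.36, 13.41 and 13.24 at the probe with the larger change in high-fat females of 9% mothers, against 13.02, 13.00, 12.84 and 12.94 in control-diet females of 9% mothers. The groups were well apart and spread little within themselves. Uqcr10 rose by 0.45 ± 0.08 and, at its other probe, by 0.37 ± 0.09 (SE, 4 arrays per group, limma adjusted p = 0.00925 and 0.0264). Uqcr11 rose by 0.41 ± 0.10 (limma adjusted p = 0.0319). The core proteins Uqcrc1 and Uqcrc2 and the Rieske protein Uqcrfs1 changed by 0.26, 0.08 and 0.14 and did not pass.

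In complex IV, 5 of 14 probes were called, for 4 genes. Cox7b, a small nuclear-encoded subunit, measured 10.20, 10.18, 10.58 and 10.21 in high-fat females of 9% mothers, against 9.66, 8.97, 9.71 and 9.35 in control-diet females of 9% mothers. No control-diet array reached the lowest high-fat array, and high-fat replicate 3 stood above the rest. Cox7b rose by 0.87 ± 0.18 (SE, 4 arrays per group, limma adjusted p = 0.0188), or 1.83-fold. Before normalisation its intensity was 904 to 1233 units in high-fat females of 9% mothers, against 516 to 990 units in control-diet females of 9% mothers. Cox6b1 rose by 0.47 ± 0.13 and 0.42 ± 0.10 at its probes, Cox6c by 0.46 ± 0.13 and Cox4i1, the subunit at which ATP restrains the enzyme, by 0.24 ± 0.06 (limma adjusted p from 0.0346 to 0.0491).

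With brightness as a covariate the Cox6b1 probes changed by 0.17 and 0.22, and Cox7b by 0.72 or more in every setting tried. Of the other members of complex IV, Cox7a2l was the one with a negative change (-0.21). It measured 10.86, 10.78, 10.93 and 10.97 in high-fat females of 9% mothers, against 11.07, 11.19, 10.96 and 11.18 in control-diet females of 9% mothers, which overlapped. Cox7a1, the isoform typical of heart and muscle, was detected on all 16 arrays at a low level and changed by 0.44 ± 0.19. Ndufa4 changed by 0.22.

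In complex V, 4 of 17 probes were called. Atp5k, the small subunit e of the membrane part, measured 6.34, 6.51, 7.47 and 6.34 in high-fat females of 9% mothers, against 5.43, 5.03, 6.25 and 5.23 in control-diet females of 9% mothers. The highest control-diet array came just below the lowest high-fat arrays, and high-fat replicate 3 was far above its group. Atp5k rose by 1.18 ± 0.30 (SE, 4 arrays per group, limma adjusted p = 0.0377), or 2.27-fold, and was the dimmest of the called members: it was detected on 4 high-fat and 3 control-diet arrays. Without high-fat replicate 3 its change was 0.92, and with a larger background offset it was 0.78.

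Atp5e, the epsilon subunit of the F1 part, rose by 0.48 ± 0.11, Atp5mpl, a small membrane protein of the enzyme, by 0.37 ± 0.09 and Atp5d, the delta subunit of F1, by 0.35 ± 0.09 (limma adjusted p from 0.023 to 0.0383). The catalytic and structural head subunits Atp5b and Atp5a1 changed by 0.17 and 0.35, and Atp5c1, of the central stalk, by 0.28. The genes of the proton-carrying c ring, Atp5g1, Atp5g2 and Atp5g3, changed by 0.39, 0.26 and 0.17, none past the threshold, and for all 3 the groups did not overlap. Atp5pb, of the peripheral stalk, stood at -0.02.

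**Figure D2:**
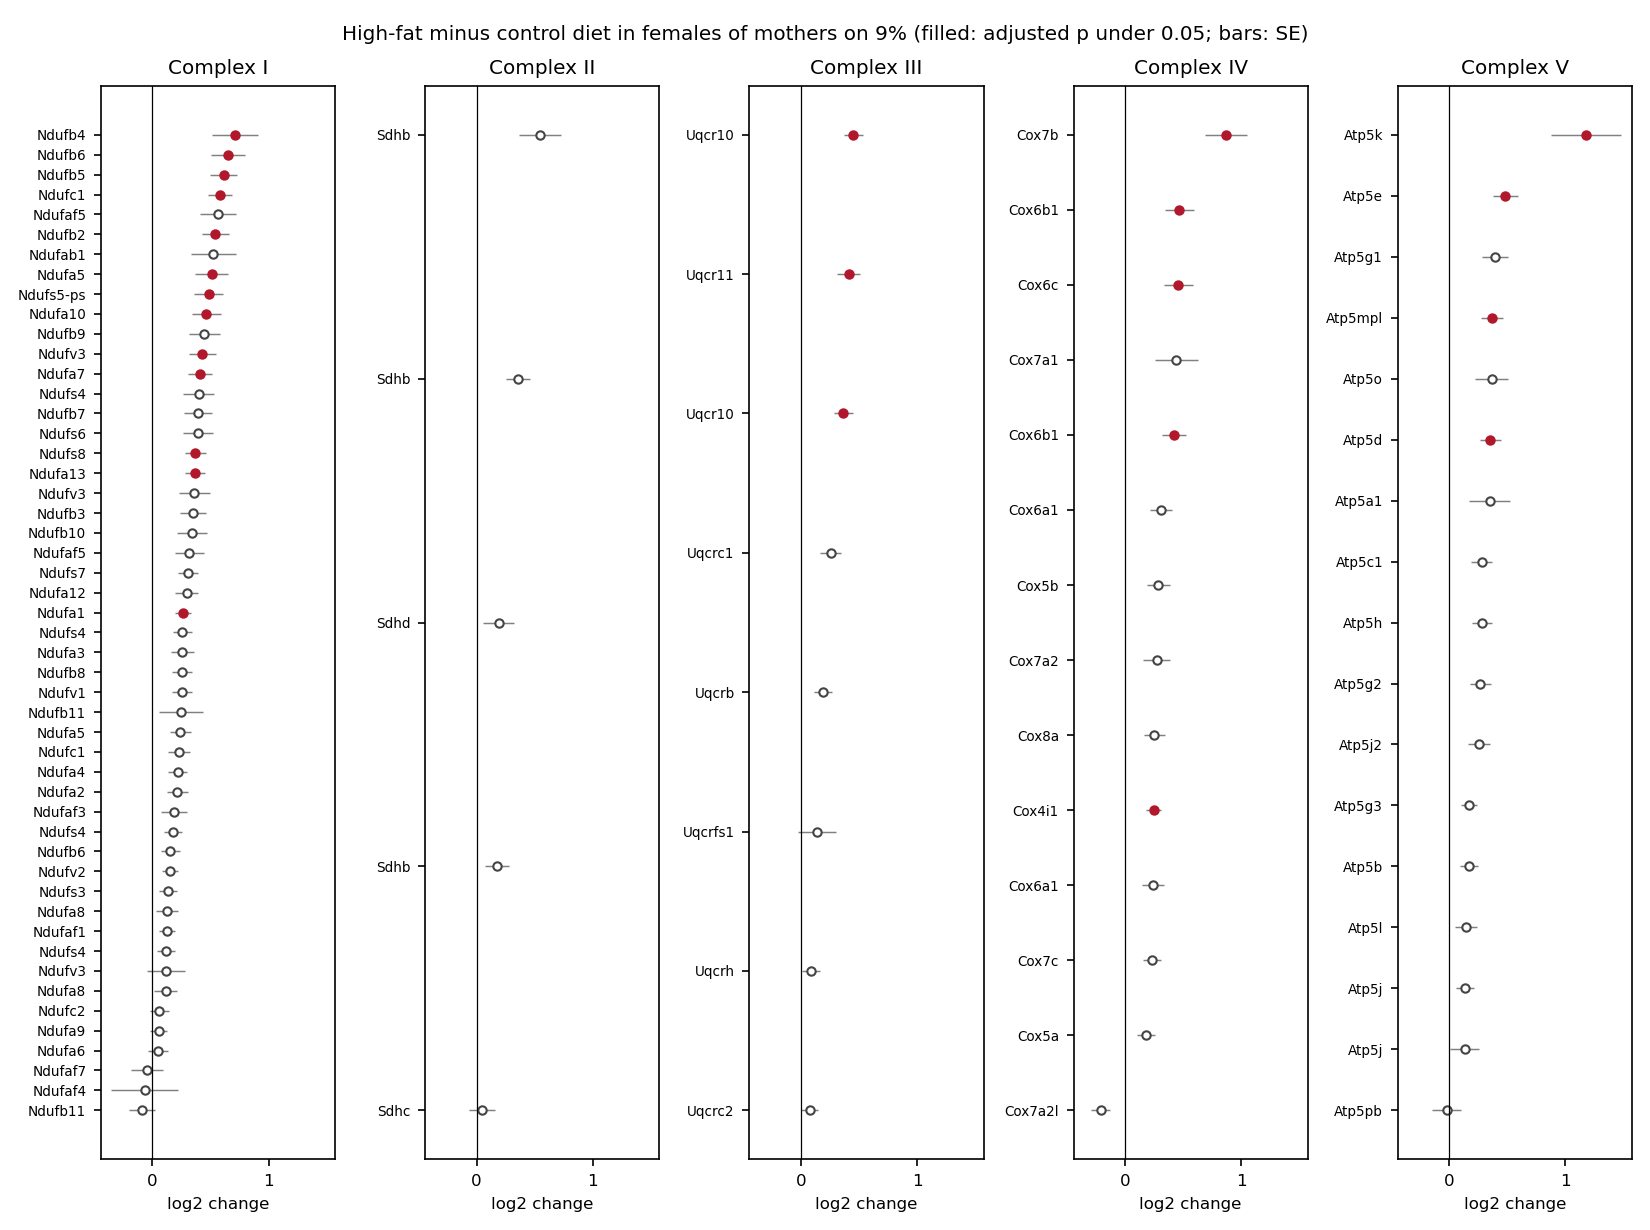
Log2 change, high-fat minus control diet, of each of the 94 member probes in females of 9% mothers, by complex; bars are standard errors, filled points passed the limma test. Nearly all points lie right of 0, with Atp5k (1.18) and Cox7b (0.87) farthest out and Cox7a2l (-0.21) lowest.

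**Figure D3:**
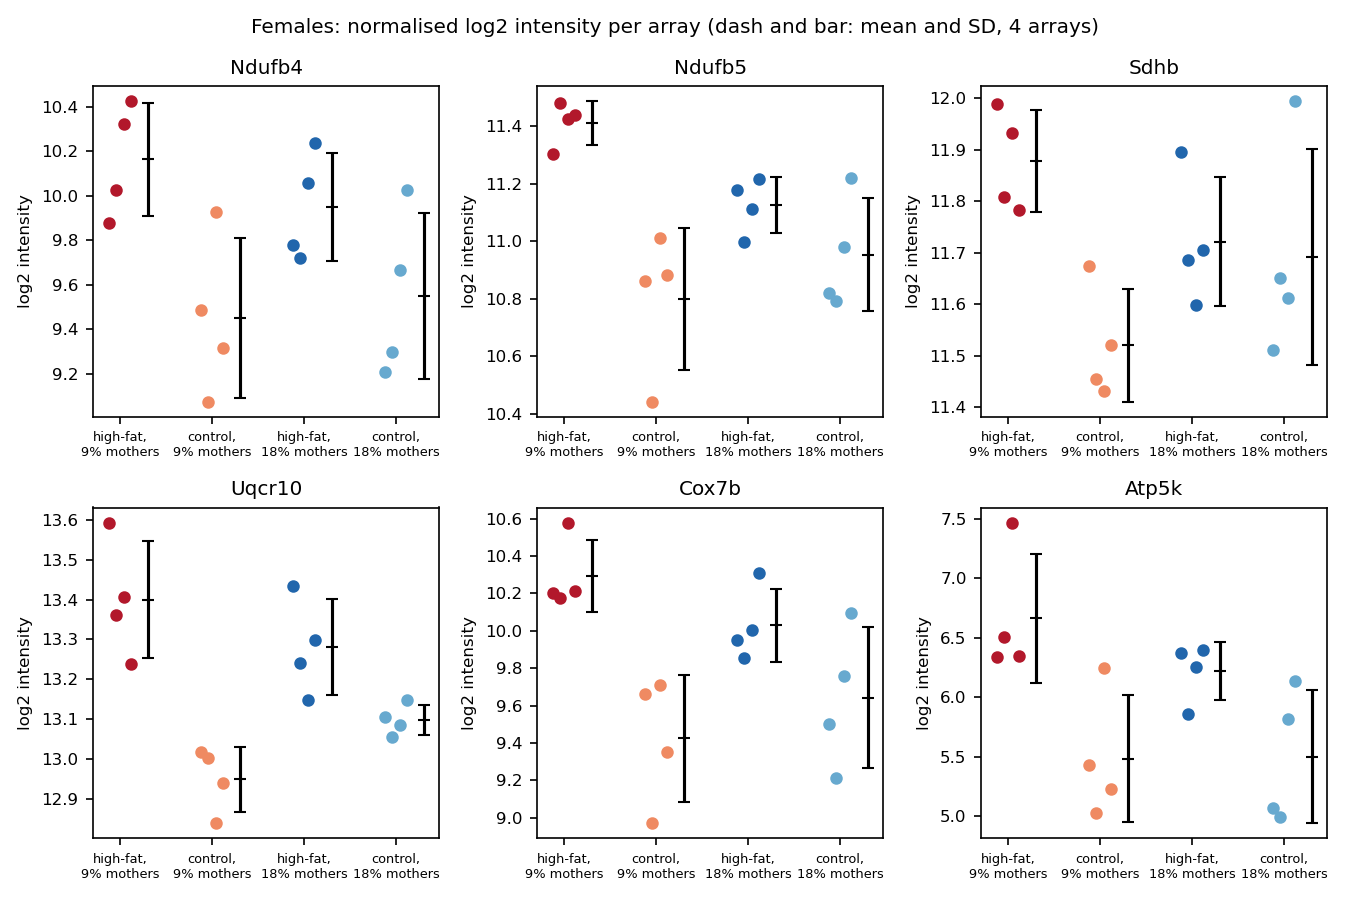
Normalised log2 intensity of 6 genes on each of the 16 female arrays, by group, with mean and SD beside the points; Sdhb is shown at its brightest probe. High-fat females of 9% mothers are highest on average in each panel, and control-diet females of 9% mothers are lowest.

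Probes of one gene did not always give the same call. Of 13 genes with several member probes, 2 were called at all of them and 4 at some. Ndufb6 changed by 0.65 and 0.15 at its probes, Ndufc1 by 0.58 and 0.23, Ndufa5 by 0.51 and 0.24, and Ndufv3 by 0.43, 0.36 and 0.12. Ndufb11 was the one whose probes differed in sign.

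Markers of other cell types were followed beside these changes. The summed level of the 9 detected hepatocyte markers was 110200 to 119000 units in high-fat females of 9% mothers, against 120900 to 130000 in control-diet females of 9% mothers, with 0 of 10 probes called. In the same order of groups, the macrophage sum (7 of 10 genes detected, Cd5l not) was 4890 to 8329 units against 5074 to 8808. The endothelial sum (5 of 6, Kdr not detected) was 4771 to 5633 against 5520 to 6551, and Stab2, a receptor of sinusoidal endothelium, fell by 0.41 ± 0.10. Of the muscle and brown fat list, 8 of 9 genes were not detected in females, Ucp1, Ckm and Acta1 among them, and the ninth was Cox7a1. The sums were 2073 to 2552 units against 2434 to 3702 for stellate cells, 66.43 to 79.87 against 54.05 to 80.27 for cholangiocytes, 111.8 to 126.4 against 128.6 to 163.5 for lymphocytes, 379 to 1042 against 468 to 1101 for neutrophils and 7985 to 11450 against 5753 to 10970 for red cells. The part of these differences in the change of the members was not tested.

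Other genes that serve the same machinery were counted from separate gene lists. Of 45 probes for assembly factors, a list that includes the Ndufaf genes, 3 rose and 0 fell in high-fat females of 9% mothers (median 0.14): Atpaf2, a chaperone of ATP synthase, and Cox20 and Cox14, which help build complex IV. Of 25 probes for electron carriers and transport 3 rose (median 0.19), at Coq5 (2 probes) and Coq7, both enzymes of ubiquinone synthesis. Of 17 probes for the citric acid cycle Suclg1, a succinyl-CoA ligase subunit, rose (median 0.16). Of 15 probes for regulators of mitochondrial gene expression Ppara, the fatty acid receptor, rose by 0.55 ± 0.14, and the list's median was -0.03.

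Ribosomal proteins gave a further point of reference. Of 96 probes for mitochondrial ribosomal proteins 9 rose, 84 changes were positive and the median was 0.17. Of 69 probes for cytosolic ribosomal proteins Rpl38 and Rps27l rose and Rpl27a fell, and the median was 0.02.

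**Figure D4:**
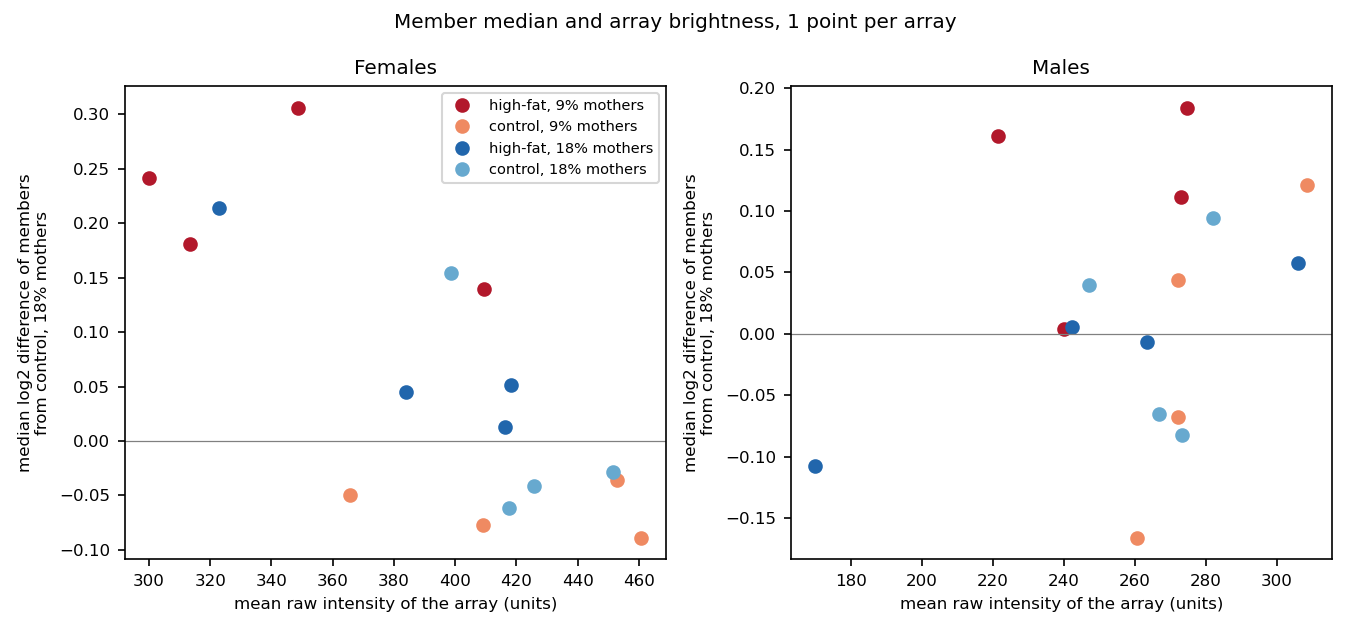
Median of the member probes on each array (log2 difference from control-diet offspring of 18% mothers) against the mean raw intensity of the array in units, with 1 point per array. In females the arrays at 300 to 349 units stand at 0.18 to 0.31; in males the dimmest array, at 170 units, stands at -0.11.

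In females of 18% mothers 0 of the 94 probes passed, where 0.0637% of all probes did (0.0478% higher, 0.0159% lower). The change was positive for 77 of 94 (49.1% of all probes), with a median of 0.06, and at an unadjusted p under 0.05 12 were higher and 0 lower (5.72% and 6.25% of all probes). For 3 probes the high-fat arrays all lay above the control-diet arrays and for 1 all below (3.06% and 4.10% of all probes). Cox7b measured 9.95, 9.86, 10.00 and 10.31 in high-fat females of 18% mothers, against 9.50, 9.21, 9.76 and 10.10 in control-diet females of 18% mothers, and the groups overlapped through control-diet replicate 4. That array had the highest member median of its group, 0.15 against -0.06 to -0.03 on the others. Without it the median change of the members was 0.13, and without high-fat replicate 1 it was 0.04. With brightness as a covariate it was 0.02, with 59 changes positive, and with median scaling it was 0.13, with 84 positive. Macrophage probes were positive at 10 of 10 in high-fat females of 18% mothers (median log2 change 0.32). Stellate cell probes were positive at 1 of 11 (-0.17) and cholangiocyte probes at 0 of 2 (-0.39). Endothelial, lymphocyte and neutrophil probes were positive at 3 of 6, 2 of 3 and 2 of 3, with 0 called in these lists. The hepatocyte sum was 110900 to 122600 units in high-fat females of 18% mothers, against 123400 to 135100 units in control-diet females of 18% mothers. The part of these markers in the members' values was not tested.

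By complex, the genes with the smallest p in females of 18% mothers were as follows. In complex I, Ndufaf1 changed by 0.25 ± 0.07 and Ndufb3 by 0.35 ± 0.11 (SE, 4 arrays per group, limma adjusted p = 0.213 and 0.248). In complex II, Sdhb changed by 0.34 ± 0.18 at a dimmer probe, though by 0.03 at its brightest probe, and Sdhd by 0.20 ± 0.13. Complex III gave Uqcr10 at 0.18 ± 0.08 and Uqcrfs1 at 0.36 ± 0.16, and complex IV gave Cox5b at 0.21 ± 0.10 and Cox7b at 0.39 ± 0.18. In complex V, Atp5b changed by 0.20 ± 0.08 and Atp5k by 0.72 ± 0.30.

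The difference between the high-fat effects after 9% and after 18% mothers was tested as an interaction. In females 0 of 94 probes passed, and 0% of all probes did. The interaction was positive for 84 of 94 (49.8% of all probes), with a median of 0.21, and at an unadjusted p under 0.05 17 were higher and 0 lower (2.70% and 2.52% of all probes). The smallest p values were at Ndufb5 (0.44 ± 0.17) and Ndufa1 (0.25 ± 0.10) in complex I. In complex II they were at Sdhb (0.33 ± 0.15, at its brightest probe) and Sdhc (0.07 ± 0.16). In complex III they were at Uqcr10 (0.31 ± 0.12) and Uqcr11 (0.35 ± 0.14). In complex IV they were at Cox6b1 (0.34 ± 0.15) and Cox7a1 (0.58 ± 0.26), and in complex V at Atp5mpl (0.35 ± 0.13) and Atp5g2 (0.32 ± 0.13); the lowest limma adjusted p among members was 0.898. The high-fat effect after 9% mothers is thus not shown to differ from that after 18% mothers for any member. Without control-diet replicate 4 of the 18% mothers the median was 0.16. The same interaction was negative at 10 of 10 macrophage probes (median -0.43), 3 of 3 lymphocyte probes (-0.35) and 3 of 3 neutrophil probes (-0.26). It was positive at 2 of 2 cholangiocyte probes (0.57), 2 of 2 red cell probes (0.32) and 8 of 11 stellate cell probes (0.16). Hepatocyte probes were positive at 5 of 10 (0.001) and endothelial probes at 1 of 6 (-0.10). None of these was called, and their part in the members' values was not tested.

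Maternal diet was compared within each offspring diet. On the high-fat diet, offspring of 9% mothers against those of 18% mothers had 89 of 94 positive changes (50.1% of all probes) and a median of 0.13, with 0 called (0% of all probes). By the unadjusted p under 0.05, 14 were higher and 0 lower (4.51% and 4.78% of all probes), and for 6 probes the groups did not overlap, all higher (2.01% of all probes, with 2.09% lower). The smallest p values were at Ndufa1 (0.23 ± 0.07), Ndufb6 (0.41 ± 0.14), Sdhb (0.16 ± 0.10), Sdhc (0.03 ± 0.11) and Uqcr10 (0.20 ± 0.09), the lowest limma adjusted p being 0.407. Uqcr11 (0.21 ± 0.10), Cox6b1 (0.24 ± 0.10), Cox6c (0.24 ± 0.13), Atp5mpl (0.20 ± 0.09) and Atp5g1 (0.22 ± 0.11) followed for the other complexes. Of the marker probes in this contrast, 0 of 10 were positive for macrophages (median -0.18), 0 of 11 for stellate cells (-0.21), 0 of 3 for lymphocytes (-0.22) and 0 of 3 for neutrophils (-0.12), while 2 of 2 were positive for cholangiocytes (0.24), none called. Their part in the members' values was not tested. These contrasts share arrays with the high-fat contrasts and are no separate evidence.

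On the control diet, female offspring of 9% mothers against those of 18% mothers had 19 of 94 positive changes (50.7% of all probes) and a median of -0.07, with 0 called (0% of all probes). At an unadjusted p under 0.05, 1 was higher and 3 were lower (2.95% and 3.23% of all probes), and without overlap 1 was higher and 5 were lower (1.59% and 1.62%). Ndufb11, at its dimmer probe, changed by -0.46 ± 0.19 and Ndufaf1 by 0.15 ± 0.07 (SE, 4 arrays per group). Complex II gave Sdhb at -0.17 ± 0.10 and Sdhc at -0.04 ± 0.11, and complex III Uqcr10 at -0.15 ± 0.08 and Uqcr11 at -0.14 ± 0.10. Complex IV gave Cox4i1 at -0.13 ± 0.06 and Cox7a1 at -0.35 ± 0.19, and complex V Atp5g2 at -0.25 ± 0.09 and Atp5mpl at -0.15 ± 0.09, with a lowest limma adjusted p of 0.687. Without control-diet replicate 4 of the 18% mothers the median was -0.01, and with median scaling it was -0.02, with 39 changes positive. Macrophage probes were positive at 10 of 10 (median 0.19) and stellate cell probes at 2 of 11 (-0.33), with 0 called, and their part was not tested.

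In males 0 of 80 member probes passed in any comparison. For the high-fat diet after 9% mothers, 0.214% of all probes were called (0.164% higher, 0.0493% lower). The change was positive for 77 of 80 members (48.9% of all probes), with a median of 0.13, and at an unadjusted p under 0.05 16 were higher and 0 lower (5.42% and 5.11% of all probes). For 9 probes the high-fat arrays all lay above the control-diet arrays and for 0 all below (3.77% and 4.00% of all probes). The member median on the arrays was 0.00, 0.16, 0.11 and 0.18 in high-fat males of 9% mothers, against -0.17, 0.12, -0.07 and 0.04 in control-diet males of 9% mothers, so the groups overlapped. Without control-diet replicate 1 the median change was 0.07, with 64 of 80 positive, and without control-diet replicate 2 it was 0.18, with 79 positive. With median scaling, which moved the median of all probes to -0.10, it was 0.09, with 59 positive.

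Complex I held the smallest p values in these males. Ndufs5, an accessory subunit, measured 11.27, 11.75, 11.31 and 11.66 in high-fat males of 9% mothers, against 10.71, 10.93, 11.18 and 11.03 in control-diet males of 9% mothers. Ndufa5, an accessory subunit of the matrix arm, measured 11.61, 11.84, 11.81 and 11.94 in high-fat males of 9% mothers, against 11.30, 11.20, 11.42 and 11.52 in control-diet males of 9% mothers. For both genes the groups did not overlap, and the changes were 0.54 ± 0.14 and 0.44 ± 0.12 (SE, 4 arrays per group, limma adjusted p = 0.161 and 0.165). The other Ndufa5 probe changed by 0.20.

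Sdhb in males measured 11.64, 11.55, 11.88 and 11.59 at its brighter probe on the high-fat diet after 9% mothers, against 11.29, 11.26, 11.37 and 11.43 on the control diet. The groups did not overlap, and the change was 0.33 ± 0.11 (limma adjusted p = 0.256), while Sdhc changed by 0.10 ± 0.13. Uqcr11 and Uqcrb changed by 0.28 ± 0.13 and 0.17 ± 0.11 in complex III, and Cox7c and Cox6b1 by 0.28 ± 0.11 and 0.27 ± 0.11 in complex IV. In complex V Atp5j, of the peripheral stalk, changed by 0.50 ± 0.20 at its brighter probe and Atp5g1 by 0.26 ± 0.11. The dimmer Atp5j probe averaged 5.02 in high-fat males of 9% mothers, against 4.86 in control-diet males of 9% mothers. Of the genes with the largest female changes, Cox7b changed by 0.10 here, Atp5k by 0.15, at another probe than in females, and Ndufb4 by 0.06. They were picked on their female values, so lower male values do not show a difference between the sexes. Of 66 genes measured in both sexes, 48 had the higher change in females. Ndufb3 (0.46 in males, 0.35 in females) and Cox7c (0.28 and 0.23) were among those higher in males. Of the other lists, 0 of 38 probes for assembly factors and 0 of 93 for mitochondrial ribosomal proteins passed in these males (medians 0.17 and 0.18).

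On the male list of muscle and brown fat genes, Cidea, which encodes a lipid droplet protein, was called on the high-fat diet. It rose by 3.29 ± 0.61 after 9% mothers and by 4.00 ± 0.61 after 18% mothers (limma adjusted p = 0.0346 and 0.00446). Ucp1, Ckm, Acta1, Cox6a2 and Cox8b of that list were not detected. The hepatocyte sum was 44840 to 48430 units in high-fat males of 9% mothers, against 43530 to 46830 units in control-diet males of 9% mothers. In the same groups the red cell sum was 7618 to 11590 units against 6342 to 8556, the macrophage sum 1974 to 2746 against 1869 to 3926 and the stellate cell sum 1096 to 1660 against 1344 to 1689. The endothelial sum was 2484 to 3538 units against 2701 to 3725, and the neutrophil sum 187 to 604 against 204 to 510. Lymphocyte markers gave 78.8 to 95.3 units against 86.3 to 116.5 and cholangiocyte markers 195 to 459 against 235 to 950. Positive changes were found at 1 of 7 macrophage, 0 of 3 lymphocyte and 0 of 2 cholangiocyte probes (medians -0.10, -0.31 and -0.31), with 0 called. Their part in the values of the members was not tested.

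In males of 18% mothers, positive changes on the high-fat diet were found for 36 of 80 members (49.1% of all probes), the median was -0.01, and 0 were called, where 0.591% of all probes were (0.435% higher, 0.156% lower). With median scaling 18 of 80 were positive and the median was -0.08, against -0.05 over all probes. The sign of the median turned without control-diet replicate 2 (0.02) and with brightness as a covariate (0.01), each with 44 positive. Without overlap 1 was higher and 0 lower (3.30% and 3.76% of all probes). At an unadjusted p under 0.05, 2 were lower and 0 higher (7.58% and 7.12% of all probes): Ndufs3, a core subunit, at -0.21 ± 0.09, and Ndufaf4 at -0.64 ± 0.27 (SE, 4 arrays per group, limma adjusted p = 0.28 and 0.29). At its other probe, Ndufs3 averaged 9.15 in high-fat males of 18% mothers, against 9.20 in control-diet males of 18% mothers. Ndufaf4 measured 8.75, 9.15, 9.38 and 8.56 in high-fat males of 18% mothers, against 9.74, 9.83, 9.56 and 9.26 in control-diet males of 18% mothers, with overlap. Complex II gave Sdhc at 0.13 ± 0.13 and Sdhb at -0.12 ± 0.16 at its dimmer probe, against -0.06 at its brighter probe. Complexes III and IV gave Uqcrc1 at -0.19 ± 0.12, Uqcrh at -0.13 ± 0.14, Cox5a at -0.13 ± 0.12 and Cox8a at 0.11 ± 0.12. Complex V gave Atp5b at 0.16 ± 0.10 and Atp5g1 at -0.18 ± 0.11. Marker probes were positive at 2 of 8 for hepatocytes (median -0.15), 4 of 7 for macrophages (0.21), 4 of 6 for stellate cells (0.35) and 0 of 3 for neutrophils (-0.24). None of these was called, and their part was not tested.

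The male interaction was positive for 66 of 80 probes (50% of all probes), with a median of 0.18, and at an unadjusted p under 0.05 11 were higher and 0 lower (3.75% and 3.52% of all probes), with 0 called (0% of all probes). The smallest p values were at Ndufa5 (0.51 ± 0.17), Ndufa12 (0.56 ± 0.18), Sdhb (0.39 ± 0.15), Sdhc (-0.03 ± 0.18) and Uqcr11 (0.26 ± 0.18), with a lowest limma adjusted p of 0.649. Uqcrc1 (0.23 ± 0.16), Cox7c (0.35 ± 0.15), Cox6b1 (0.27 ± 0.16), Atp5g1 (0.43 ± 0.16) and Atp5d (0.39 ± 0.18) followed. Marker probes were positive at 1 of 7 for macrophages (median -0.31), 1 of 6 for stellate cells (-0.34), 0 of 3 for lymphocytes (-0.20) and 3 of 3 for neutrophils (0.16). None of these was called, and their part was not tested.

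Maternal diet gave 0 calls in males, as it did over all probes (0%). On the high-fat diet the members of offspring of 9% mothers had 72 of 80 positive changes (50.5% of all probes) and a median of 0.14. By the unadjusted p under 0.05, 10 were higher and 0 lower (3.14% and 3.72% of all probes), and without overlap 5 were higher and 0 lower (1.92% and 1.59%). Ndufs3 (0.30 ± 0.09), Ndufa5 (0.40 ± 0.12), Sdhb (0.23 ± 0.11), Sdhc (0.18 ± 0.13) and Uqcrc2 (0.19 ± 0.11) had the smallest p values, followed by Uqcrh (0.22 ± 0.14), Cox5b (0.23 ± 0.11), Cox6a1 (0.20 ± 0.10), Atp5d (0.35 ± 0.12) and Atp5g1 (0.29 ± 0.11), at limma adjusted p of 0.708 or above. On the control diet 29 of 80 changes were positive (51.1% of all probes), and the median was -0.03. The direction changed with the array left out: the median was 0.02, with 44 positive, without control-diet replicate 1 of the 9% mothers and -0.07, with 20 positive, without their replicate 2. With median scaling 39 of 80 were positive. At an unadjusted p under 0.05, 0 were higher or lower (1.77% and 2.29% of all probes), and without overlap 0 were higher or lower (1.63% and 1.22%). There Ndufa8 (-0.22 ± 0.11), Ndufb11 (-0.29 ± 0.18), Sdhc (0.21 ± 0.13), Sdhb (-0.16 ± 0.11), Uqcrc2 (0.13 ± 0.11), Uqcr11 (-0.11 ± 0.13), Cox7c (-0.17 ± 0.11), Cox6b1 (-0.14 ± 0.11), Atp5pb (0.20 ± 0.15) and Atp5j (-0.24 ± 0.20) had the smallest p values of their complexes. Macrophage probes were positive at 7 of 7 on the control diet (median 0.37) and 4 of 7 on the high-fat diet (0.19). In the same order stellate cell probes were positive at 5 of 6 (0.18) and 1 of 6 (-0.16). Neutrophil probes were positive at 3 of 3 on both diets (0.40 and 0.55). None of these was called, and their part was not tested.

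The sexes were compared by testing the female high-fat effect minus the male one over 6941 genes measured on both versions, 66 of them members, 48 of these at the same probe. After 9% mothers 0 members were called, as were 0% of all genes, and the lowest limma adjusted p of a member was 0.62. At an unadjusted p under 0.05, 8 members differed, all with the larger change in females, where 7.26% of all genes differed. The largest of these differences were Atp5k (1.03 ± 0.37), Cox7b (0.77 ± 0.27), Ndufb4 (0.66 ± 0.26) and Ndufb5 (0.58 ± 0.18). Each sex had its own array version, so a difference between the sexes cannot be told apart from one between versions. Atp5k was read at a different probe in each sex, detected on 13 female and 16 male arrays. The median change was 0.26 in females and 0.12 in males, and 59 of 66 genes had positive changes in both sexes. The median of the female minus the male change was 0.12 for the members, against 0.04 over all 6941 genes. The share of all genes positive in both sexes is not given here.

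After 18% mothers 0 members and 0% of all genes were called, and 5 members differed at an unadjusted p under 0.05 (10.7% of all genes), with a lowest limma adjusted p of 0.372. These were Atp5j2 (0.32 ± 0.13), Ndufs8 (0.32 ± 0.15), Ndufaf4 (0.91 ± 0.42), Atp5k (0.77 ± 0.37) and Uqcrc1 (0.29 ± 0.14), each larger in females and named after their values were seen. Across the 66 genes, which are not independent, the female and male changes had a Pearson correlation of -0.07 after 9% mothers and 0.05 after 18% mothers.

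**Figure D5:**
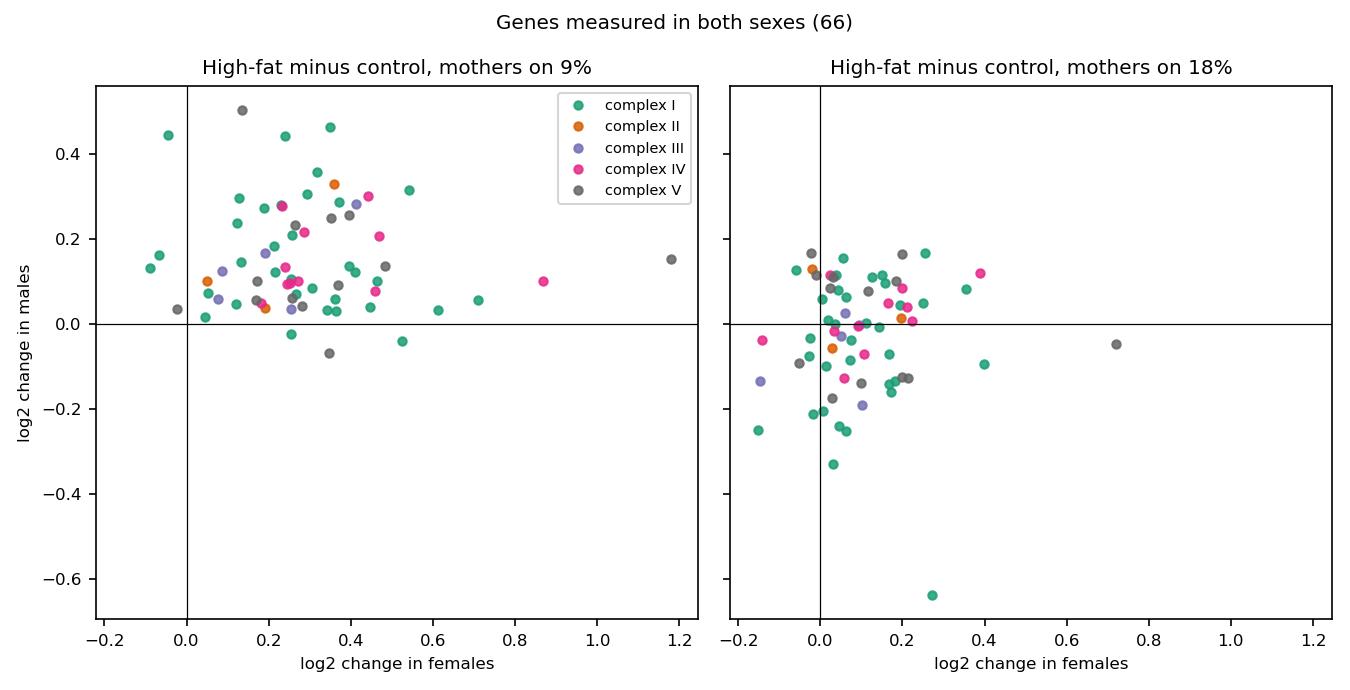
Log2 change on the high-fat diet in females (horizontal) and in males (vertical) for the 66 member genes measured in both sexes, after 9% mothers (left) and after 18% mothers (right), coloured by complex. After 9% mothers 59 of 66 points lie right of 0 and above 0; Atp5k and Cox7b lie far right with small male changes.

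Variation among animals of the same group was compared between members. After each probe's group mean was taken away, the median correlation between pairs of member probes over the 16 arrays was 0.29 in females, with 78% of pairs positive, against 0.00 over all pairs of detected probes. In males it was 0.25, with 74.6% of pairs positive. In females it was lowest in complex I (0.24) and highest in complex V (0.33), and in males it was highest in complex IV (0.38). In male complex II, with 4 probes, it was -0.00, with 50% of pairs positive. These pairs share arrays, and probes of 1 gene share a transcript.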

How the data were processed

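Liver RNA of 32 mice, 16 per sex, was read on bead arrays with 25697 probes (females) and 24613 probes (males). The deposited intensity of a probe had background taken off but no scaling between arrays, and it comes with a detection p-value, per the file headers. A deposited table of the series holds intensities that were quantile-normalised on the linear scale, as its columns show. The submitters' processing notes list BeadStudio, with no version.

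Intensities were background-corrected with neqc (limma 3.58.1, R 4.3.3, offset 16, with the negative controls' level derived from detection p-values), quantile-normalised and put on the log2 scale. Probes with a detection p-value under 0.05 on at least 4 of 16 arrays were kept. Each sex was fitted on its 4 groups with lmFit and eBayes (trend), and p-values were adjusted by Benjamini-Hochberg over 12561 or 12173 detected probes at 0.05. Sexes were compared in 1 fit over 6941 shared genes. Symbols came from the platform annotation. The high-fat and interaction fits of each sex were run on simulated data with known changes. In each, 67, 67 and 66 probes were changed by 0.25, 0.5 and 1, and noise was drawn separately for each probe. A log2 change of 0.25 was recovered at 0 or 1 of 67 probes in each. At 0.5 the high-fat fits recovered 10 to 21 of 67, and the interactions 1 in females and 0 in males. At 1 the fits recovered 26 to 60 of 66. At changes of the size of the members' medians, 0 calls therefore do not show absence of a change. These rates do not carry over to the high-fat contrast in females of 9% mothers, where far more probes (557) were called. Cox4i1, with a change of 0.24, was called there. The number of arrays limits the precision, and 43.7% to 47.3% of probes were detected per array. No label says that replicate numbers pair the samples, and the fits did not pair them. After group means were taken away, 10 of 24 same-numbered pairs in each sex correlated above 0.1. Their median correlation was 0.059 in females and 0.064 in males, against -0.017 and -0.015 for other pairs. The most correlated array of another group had the same number for 7 of 16 female and 9 of 16 male arrays. Whether the numbers mark a shared feature was not tested.

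The text names, per comparison and complex, up to 5 called genes with the largest change, or the 2 with the smallest p where fewer than 2 passed, and gives values per array for the largest called gene of each complex. A fixed set of further genes (Sdha to Sdhd, tissue isoforms of complex IV, the c ring genes, Ndufa4, Cox7a2l, the Ndufaf genes) and probes of a gene with unlike calls are named too. Any other gene given with values was picked once these were known. The members and lists were chosen with earlier results of these data known. Alternatives covered normalisation, offset, filter, brightness, weights, block and arrays left out. Figures used matplotlib 3.10.9 (Python 3.11.15, pandas 2.3.3).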

Additional observations from a re-analysis of the deposited data

Results flagged for a closer look

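Groups of 4 arrays were examined for the called female probes, the Sdh probes of both sexes, the member median and the brightness of an array. No other member was examined, so male members outside complex II were not. In 7 of 152 such groups, 1 array lay far from the other 3 by Dixon's 95% criterion on the gap over the range. Chance gives about 1 in 20. In high-fat females of 9% mothers, replicate 3 was the highest for Atp5k (7.4702, the others 6.3383 to 6.5057) and for Cox7b (10.579, the others 10.177 to 10.214). In the same group replicate 4 was the lowest for Ndufv3 (11.562, the others 11.967 to 12.04). In high-fat females of 18% mothers, replicate 1 was the highest for Sdhb at 1 probe (11.86, the others 11.558 to 11.596) and for Atp5d (11.91, the others 11.726 to 11.752). In control-diet females of 18% mothers, replicate 4 was the highest for Cox6b1 at 1 probe (13.052, the others 12.645 to 12.692). Its median over all member probes was also the highest (0.15463, the others -0.0619 to -0.0284, log2 difference from the group's mean).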

How the results depend on the processing

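In high-fat against control-diet females of 9% mothers, 25 member probes were called. The count was 16 with median scaling, 7 with no filter on detection and 10 without the intensity trend in eBayes. It was 9 with only the groups compared in the fit and 0 with brightness as a covariate. Leaving out the 4 dimmest arrays left 1 high-fat array of 9% mothers, so no count is given for it. The count ranged from 3 to 30 when each array was left out in turn. It was 25 in the deposited quantile-normalised table, 19 with cyclic loess, 26 at an offset of 50, 26 with probes detected on all 16 arrays, 18 with 1 probe per gene and 25 with array weights. With the replicate number as a block it was 27, though no label says that the numbers pair the samples. Over the 400 refits of the 25 probes with an array left out, 242 kept the call, 158 lost it and 0 changed sign. The share of all probes called in each setting is not given here, so these shifts cannot be read as particular to the members. Their cause was not tested. In the other comparisons the count was 0 in each setting run, the replicate block included. No block on the slide was run, since the headers used here name no slide. With 4 arrays a group, the precision is limited by their number.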
